A study of Homo sapiens with 6 samples.

Results

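Mitochondria join and divide through a small set of proteins, and 9 of their genes were followed here after an siRNA against CPT2: MFN1, MFN2, OPA1, OMA1, DNM1L, FIS1, MFF, MIEF1 and MTFR1. They were taken by name, as 9 of the 24154 genes listed in the deposited table. The cells, labelled as the human colorectal carcinoma line HCT116, received an siRNA against CPT2 (CPT2 knockdown, n = 3 libraries) or a negative control siRNA (NC, n = 3 libraries) for 48 h. RNA was captured on oligo(dT) beads and sequenced without a named strand-marking step. The labels do not say how many siRNA sequences were used or whether the replicates were separate cultures, and the spread behind each p-value, which is that between 3 libraries, may be technical. In bulk libraries, fewer cells of a type and less RNA per cell cannot be told apart.

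Fusion of the outer membrane is carried out by the mitofusins, GTPases anchored in that membrane, and fusion of the inner membrane by OPA1, a dynamin-like GTPase. OMA1 is a stress-activated protease of the inner membrane that cuts OPA1 and so stops inner membrane fusion. Division is driven by DRP1, the cytosolic GTPase that DNM1L encodes, which the outer membrane adaptors MFF, FIS1 and MIEF1 (also called MiD51) can recruit. MTFR1 is a mitochondrial protein that has been linked to fission. CPT2, the siRNA's target, encodes the inner membrane carnitine palmitoyltransferase of long-chain fatty acid oxidation.

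Libraries held 28353790 to 29449380 counts. CPT2 had 19.4, 21.3 and 18.96 CPM (counts relative to the library size, scaled by the TMM method) in CPT2 knockdown replicates 1 to 3, against 23.6, 28.6 and 29.1 CPM in NC replicates 1 to 3. The groups did not overlap, with a log2 fold change of -0.44 (SE 0.17, edgeR adjusted p = 0.338), which was 0.015 with offsets for transcript GC content and length and -0.26 when CPT2 knockdown replicate 1 was left out as well. An antisense gene without counts in the table shares 11.01% of the exon bases of CPT2, so that its counts are uncertain to that extent. The library of CPT2 knockdown replicate 1 was set apart, with a score of -76.6 on a first principal component that held 53.2% of the variance, against -16.0 to 44.6 in the other 5. Mitochondrially encoded genes took 17.0%, 15.6% and 8.99% of the counts in CPT2 knockdown replicates 1 to 3, against 10.5%, 10.8% and 10.002% in NC replicates 1 to 3, and the part of this share in the results was not tested. Of the 6 markers listed for colon epithelium only KRT8 and KRT18 were high, so the list as a whole did not bear out the cell label. KRT8 and KRT18 averaged 1257 and 970 CPM in the knockdown and 996 and 690 CPM in NC. EPCAM averaged 3.98 CPM in the knockdown and 2.93 CPM in NC, CDH1 averaged 1.77 and 2.42 CPM, and KRT19 and VIL1 averaged under 1 CPM in both groups. The intestinal transcription factors CDX1 and CDX2, looked up after those values were seen, had 0 counts in every library, and VIM, a mesenchymal filament gene, averaged 459 CPM in the knockdown and 397 CPM in NC. Of the markers of other cell types, CDH5 averaged 63.0 CPM in the knockdown and 79.2 CPM in NC, and COL1A1 94.9 and 67.04 CPM. The other endothelial markers, PECAM1 and VWF, and the fibroblast markers COL1A2 and DCN averaged under 1 CPM in both groups. PDGFRB averaged 3.36 CPM in the knockdown and 2.95 CPM in NC. The fibroblast and endothelial sums below are therefore mostly COL1A1 and CDH5, and do not stand for those cell types. The fibroblast markers summed to 79.7 to 132 CPM in the knockdown and 61.4 to 80.5 CPM in NC, with LUM at 0 throughout. The leukocyte markers summed to 1.18 to 3.00 CPM and 1.10 to 1.53 CPM, and the endothelial markers to 53.6 to 70.2 CPM and 72.8 to 89.4 CPM. Their part in the results was not tested, and the cells are called by their label.

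All 9 are annotated as protein-coding (coordinates on GRCh38, GENCODE 29). MFN1 (ENSG00000171109) is at chromosome 3, 179347692 to 179394931, plus strand, and MFN2 (ENSG00000116688) at chromosome 1, 11980181 to 12013514, plus strand. OPA1 (ENSG00000198836) is at chromosome 3, 193593144 to 193697823, plus strand, and OMA1 (ENSG00000162600) at chromosome 1, 58415384 to 58546802, minus strand. DNM1L (ENSG00000087470) is at chromosome 12, 32679200 to 32745650, plus strand, and FIS1 (ENSG00000214253) at chromosome 7, 101239458 to 101252316, minus strand. MFF (ENSG00000168958) is at chromosome 2, 227325151 to 227357836, plus strand, and MIEF1 (ENSG00000100335) at chromosome 22, 39499432 to 39518132, plus strand. Of 50-base stretches in the longest transcript, those that also stand in a transcript of another gene made up 11.3% in OMA1, 6.44% in MFN1, 3.52% in MIEF1, 2.45% in MFF, 0.456% in DNM1L and 0.270% in MTFR1. MFN2, OPA1 and FIS1 had none, and it is not stated how the authors' counting treated such reads, or strand. DAB1, which shares 6.91% of the exon bases of OMA1 on the same strand, had 0 counts in every library. Antisense or sense-intronic genes without counts in the table share 2.30% of the exon bases of OPA1, 2.77% of DNM1L and 0.781% of MFF on the opposite strand. If strand was not recorded, reads of either gene cannot be told apart there.

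The promoters of MFN1, OPA1, MIEF1 and FIS1 are shown because these 4 genes had the smallest unadjusted p-values of the 9. Each run holds 250 bases before and 50 after the RefSeq start (GRCh38.p14), read 5′ to 3′ on the gene's strand, with motif matches in capitals.
MFN1, chr3:179347459-179347758, plus strand: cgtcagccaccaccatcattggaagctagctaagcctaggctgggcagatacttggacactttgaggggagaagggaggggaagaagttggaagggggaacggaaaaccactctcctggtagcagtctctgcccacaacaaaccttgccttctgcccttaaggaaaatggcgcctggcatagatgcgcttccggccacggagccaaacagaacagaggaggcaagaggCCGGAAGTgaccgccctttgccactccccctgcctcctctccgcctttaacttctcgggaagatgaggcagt
OPA1, chr3:193592958-193593257, plus strand: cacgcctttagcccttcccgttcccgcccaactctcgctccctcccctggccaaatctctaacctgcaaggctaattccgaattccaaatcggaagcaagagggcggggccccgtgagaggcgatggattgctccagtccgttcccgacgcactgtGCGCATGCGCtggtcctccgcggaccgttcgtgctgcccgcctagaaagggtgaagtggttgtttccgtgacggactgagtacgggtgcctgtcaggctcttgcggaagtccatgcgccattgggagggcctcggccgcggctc
MIEF1, chr22:39502040-39502339, plus strand: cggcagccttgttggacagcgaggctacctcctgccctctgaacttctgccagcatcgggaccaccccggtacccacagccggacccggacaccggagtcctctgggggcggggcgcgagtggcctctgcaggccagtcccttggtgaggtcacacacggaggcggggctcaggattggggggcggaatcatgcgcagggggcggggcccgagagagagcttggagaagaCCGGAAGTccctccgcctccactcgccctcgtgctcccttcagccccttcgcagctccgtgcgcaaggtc
FIS1, chr7:101245032-101245331, minus strand: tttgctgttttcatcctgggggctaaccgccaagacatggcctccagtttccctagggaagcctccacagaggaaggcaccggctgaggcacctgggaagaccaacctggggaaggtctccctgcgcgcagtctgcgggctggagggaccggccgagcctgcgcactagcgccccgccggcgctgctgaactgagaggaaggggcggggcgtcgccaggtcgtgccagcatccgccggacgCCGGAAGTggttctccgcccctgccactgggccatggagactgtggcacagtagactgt
The capitals in MFN1, MIEF1 and FIS1 mark CCGGAAGT, the core read by ETS family factors such as GABPA, which begins at -22, -20 and -9 relative to the start. In OPA1 they mark GCGCA, any base, then GCGC, the core read by the nuclear respiratory factor NRF1, at -94. These were 2 of 6 motifs searched on both strands. The others were TCAAGGTCA (ERR), TGACGTCA (CREB), CACGTG (the E-box) and AAGATGGCG (YY1), which do not overlap the matches shown and had no match in the 8 genes with a window. OMA1 also had the NRF1 core, and the windows of MFN2, DNM1L and MFF had none of the 6. Over all 35116 RefSeq windows of this length, 4.14% held the ETS core, 5.78% the NRF1 core, 0.353% the ERR, 1.85% the CREB, 7.26% the E-box and 1.75% the YY1 motif. The 3 genes with the ETS core did not share a direction, since MFN1 and MIEF1 had lower and FIS1 higher mean levels in the knockdown. The RefSeq starts of MIEF1 and FIS1 lie inside the GENCODE genes, so other starts of these genes are not covered.

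None of the 9 genes was called after the CPT2 siRNA by edgeR's quasi-likelihood test at an adjusted p of 0.05, and 7 of the 9 had a negative log2 fold change, with a median of -0.24. Over all 15302 genes tested, 0.0131% were called, 49.3% had a negative log2 fold change and the median was 0.0083. All 9 passed the filter on low counts. DESeq2 and limma-voom also called 0 of the 9, where they called 0.118% and 0.00654% of all genes. Unadjusted, 2 of the 9 had an edgeR p under 0.05, where 14.5% of all genes did: MIEF1 on the lower side (5.29% of all genes) and FIS1 on the higher side (9.18%). MFN1, MFN2, OPA1 and MIEF1 were lower in every knockdown library than in any control, 4 of 9, where 12.2% of all genes were, and no member was higher without overlap, where also 12.2% were. An exact 2-sided permutation test on log2 CPM gave p = 0.1 for these 4, the smallest that 3 against 3 allows. The median of the 9 was -0.11 without CPT2 knockdown replicate 1 and -0.38 without replicate 2. With offsets for GC content and length it was -0.16, and -0.060 when CPT2 knockdown replicate 1 was left out as well.

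**Figure D1:**
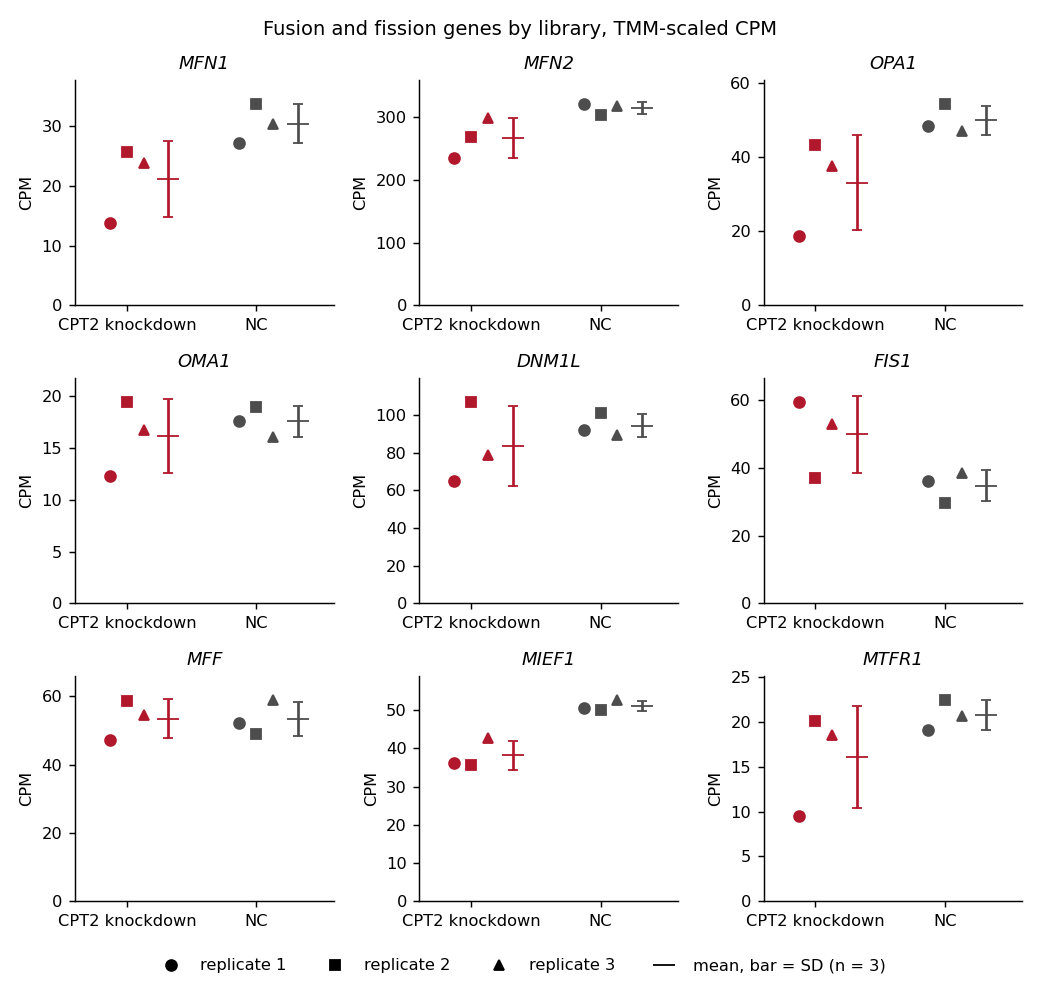
TMM-scaled CPM of the 9 genes by library (points, by replicate number) with the mean and SD of each group (n = 3), CPT2 knockdown left and NC right, each axis from 0. The knockdown points of MFN1, MFN2, OPA1 and MIEF1 all lie under the control points, and CPT2 knockdown replicate 1 is the lowest of the 6 libraries for MFN1, MFN2, OPA1, OMA1, DNM1L, MFF and MTFR1.

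Both mitofusins were lower in the knockdown libraries, without passing the test. MFN1 had 13.8, 25.6 and 23.8 CPM in CPT2 knockdown replicates 1 to 3, against 27.1, 33.7 and 30.4 CPM in NC replicates 1 to 3. The groups did not overlap, but replicates 2 and 3 of the knockdown lay within 4 CPM of the lowest control. Its log2 fold change was -0.53 (SE 0.24, 95% interval -1.08 to 0.026, edgeR adjusted p = 0.338), and -0.31 (SE 0.15) without CPT2 knockdown replicate 1. MFN2, which also tethers mitochondria to the endoplasmic reticulum, had 235, 268 and 299 CPM in CPT2 knockdown replicates 1 to 3, against 321, 304 and 318 CPM in NC replicates 1 to 3. All 3 knockdown libraries were below the controls, replicate 3 by the least. The log2 fold change of MFN2 was -0.24 (SE 0.14, interval -0.54 to 0.073, edgeR adjusted p = 0.369).

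For inner membrane fusion, OPA1 had the most negative log2 fold change of the 9, and OMA1 overlapped between the groups. OPA1 had 18.6, 43.2 and 37.5 CPM in CPT2 knockdown replicates 1 to 3, against 48.4, 54.3 and 46.9 CPM in NC replicates 1 to 3. Its log2 fold change was -0.59 (SE 0.28, interval -1.23 to 0.052, edgeR adjusted p = 0.338). Replicate 1 set much of that size, since the value was -0.31 (SE 0.14) without it. OMA1 had 12.3, 19.4 and 16.7 CPM in CPT2 knockdown replicates 1 to 3, against 17.6, 18.97 and 16.1 CPM in NC replicates 1 to 3. Replicate 1 was low and the others lay within or above the controls, with a log2 fold change of -0.12 (SE 0.21) that was 0.033 without replicate 1. The level of OPA1 divided by that of OMA1, in the authors' FPKM (counts scaled to transcript length and library size), was 0.453, 0.688 and 0.677 in CPT2 knockdown replicates 1 to 3, against 0.858, 0.855 and 0.906 in NC replicates 1 to 3. This ratio was lower in every knockdown library than in any control. It was not tested, and how many gene pairs separate the groups in this way was not counted. The transcripts of OPA1 and OMA1 also differ in GC content (38.4% and 43.5%) and length (6493 and 2105 bases). With GC and length offsets their log2 fold changes were -0.19 and -0.075.

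DNM1L, the gene of the fission GTPase DRP1, did not separate the groups. It had 64.8, 107 and 79.0 CPM in CPT2 knockdown replicates 1 to 3, against 92.0, 101 and 89.5 CPM in NC replicates 1 to 3. CPT2 knockdown replicate 2 was the highest and replicate 1 the lowest of the 6 libraries. Its estimate on the log2 scale was -0.17 (SE 0.19, interval -0.61 to 0.27, edgeR adjusted p = 0.605). It was -0.029 (SE 0.15) without replicate 1, and 0.16 (SE 0.10) with GC and length offsets.

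Of the 3 adaptors that can recruit DRP1, MIEF1 had a negative and FIS1 a positive estimate and MFF one near 0. None passed the test, and the differences between them were not tested. MIEF1 had 36.3, 35.8 and 42.6 CPM in CPT2 knockdown replicates 1 to 3, against 50.5, 50.1 and 52.7 CPM in NC replicates 1 to 3. Its knockdown libraries lay close together and all under the controls, and it had the smallest unadjusted p of the 9 (edgeR, 0.0228). The log2 fold change of -0.42 (SE 0.15, interval -0.77 to -0.073, edgeR adjusted p = 0.338) stood for a 25.2% lower level, and lay between -0.55 and -0.29 over all 19 alternatives. AL022312.1, a second protein-coding gene annotated on 2.82% of the exon bases of MIEF1 and on the same strand, had 1 count in each library. FIS1 had 59.4, 37.1 and 52.9 CPM in CPT2 knockdown replicates 1 to 3, against 36.2, 29.5 and 38.3 CPM in NC replicates 1 to 3. Replicates 1 and 3 were above every control and replicate 2 was among them, with a log2 fold change of 0.52 (SE 0.21, interval 0.045 to 1.0, edgeR adjusted p = 0.338). MFF had 47.3, 58.7 and 54.4 CPM in CPT2 knockdown replicates 1 to 3, against 52.2, 49.1 and 58.9 CPM in NC replicates 1 to 3. The groups overlapped throughout, with a log2 fold change of 0.0023 (SE 0.16, interval -0.36 to 0.36), and how this value moved with the settings is given under the dependence on the processing.

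MTFR1 (ENSG00000066855, on chromosome 8) was low in 1 knockdown library. PDE7A shares 2.51% of its exon bases on the opposite strand and had 318 to 686 counts in the knockdown and 670 to 786 in NC, so the MTFR1 counts are uncertain to that extent. It had 9.52, 20.1 and 18.6 CPM in CPT2 knockdown replicates 1 to 3, against 19.1, 22.4 and 20.6 CPM in NC replicates 1 to 3. Replicate 2 overlapped the controls, and the log2 fold change of -0.37 (SE 0.27, edgeR adjusted p = 0.449) was -0.11 (SE 0.15) without replicate 1. In the authors' deposited table all 9 genes and CPT2 carry the call normal, where 4.15% of the 13635 genes with a p-value are called up or down. The smallest unadjusted p there was 0.00665 for MIEF1 (log2 fold change -0.42), followed by FIS1 (0.0231), MFN1 (0.0382) and OPA1 (0.0419), where 20.2% of those genes have one under 0.05. An unadjusted p under 0.05 was thus not enough for a call, and the call normal does not by itself mean a larger p.

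The differences moved with the GC content of the transcripts, which ranged from 37.4% in MFF to 57.4% in FIS1. The 13207 tested genes with a known transcript were split into GC deciles of equal size. The log2 fold change had a median of -0.41 in the lowest decile (30.2% to 38.6% GC) and of 0.48 in the highest (62.0% to 74.7%). OPA1 and MFF belong to the lowest decile, MFN1, DNM1L and MTFR1 to the next, whose median was -0.34, and OMA1 to a decile at -0.19. MIEF1 belongs to a decile with a median of 0.0025, MFN2 to one at 0.14 and FIS1 to one at 0.26. OPA1 (-0.59), MFN1 (-0.53) and FIS1 (0.52) lay on the same side of 0 as their deciles, and farther out. MIEF1 (-0.42) and MFN2 (-0.24) lay below deciles that were at or above 0. MFF (0.0023) lay above a decile that was negative. The part of GC content in these differences was not tested beyond the offsets below.

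In CPT2 knockdown replicate 2 the GC trend was nearly flat, with medians of -0.042 in the lowest and 0.087 in the highest decile, against -1.02 and 0.81 in replicate 1 and -0.29 and 0.44 in replicate 3. In that library MIEF1 was 0.51 lower than the NC mean on the log2 scale. MFN1, MFN2 and OPA1 were lower by 0.24, 0.23 and 0.20 there. MTFR1 stood at -0.040, FIS1 at 0.11, MFF at 0.14, OMA1 at 0.15 and DNM1L at 0.18. In replicate 1 the same differences were -1.42 for OPA1, -1.13 for MFN1, -1.11 for MTFR1 and 0.79 for FIS1, and in replicate 3 they were -0.41, -0.34, -0.16 and 0.62. MIEF1 stood at -0.49 in replicate 1 and -0.26 in replicate 3, where its own GC decile had medians of 0.015 and 0.025. OPA1, MFN1 and MTFR1 were lowest, and FIS1 highest, in the library with the steepest trend.

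**Figure D2:**
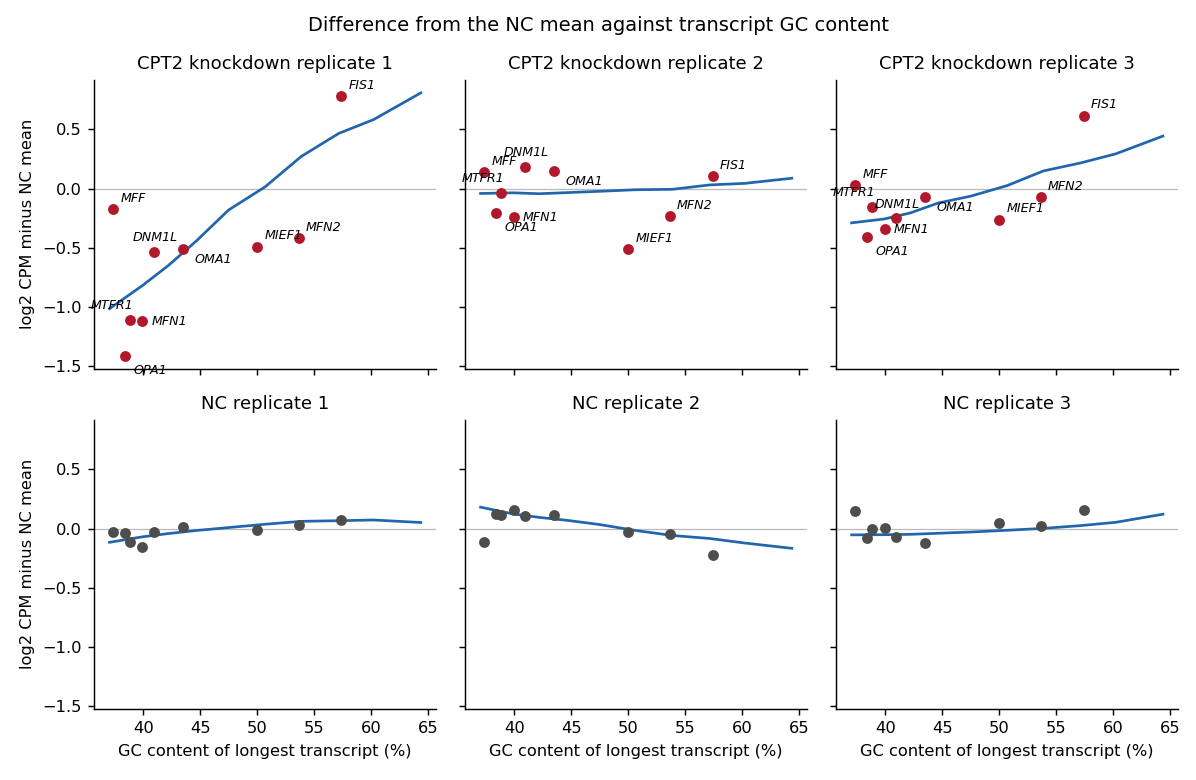
Difference of log2 CPM from the NC mean for the 9 genes (points) against the GC content of the longest transcript, 1 panel per library, with the blue line joining the medians of GC deciles of the tested genes. The line is steep in CPT2 knockdown replicate 1 and nearly flat in replicate 2, where MIEF1 lies lowest at -0.51.

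With offsets for GC content and length in the same test, 7 of the 9 estimates were between -0.30 and 0.074 and none was called, where 0.0196% of all genes were. MIEF1 had -0.30 (SE 0.11, edgeR adjusted p = 0.379) and MFN2 -0.27 (SE 0.12, adjusted p = 0.385). MFN1 had -0.16 (SE 0.11), OPA1 -0.19 (SE 0.12), MTFR1 -0.17 (SE 0.14), OMA1 -0.075 (SE 0.14) and FIS1 0.074 (SE 0.10). MFF, at 0.0023 as counted, had 0.40 (SE 0.17, edgeR adjusted p = 0.386), and 0.20 (SE 0.13) when CPT2 knockdown replicate 1 was also left out. DNM1L had 0.16 (SE 0.10).

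**Figure D3:**
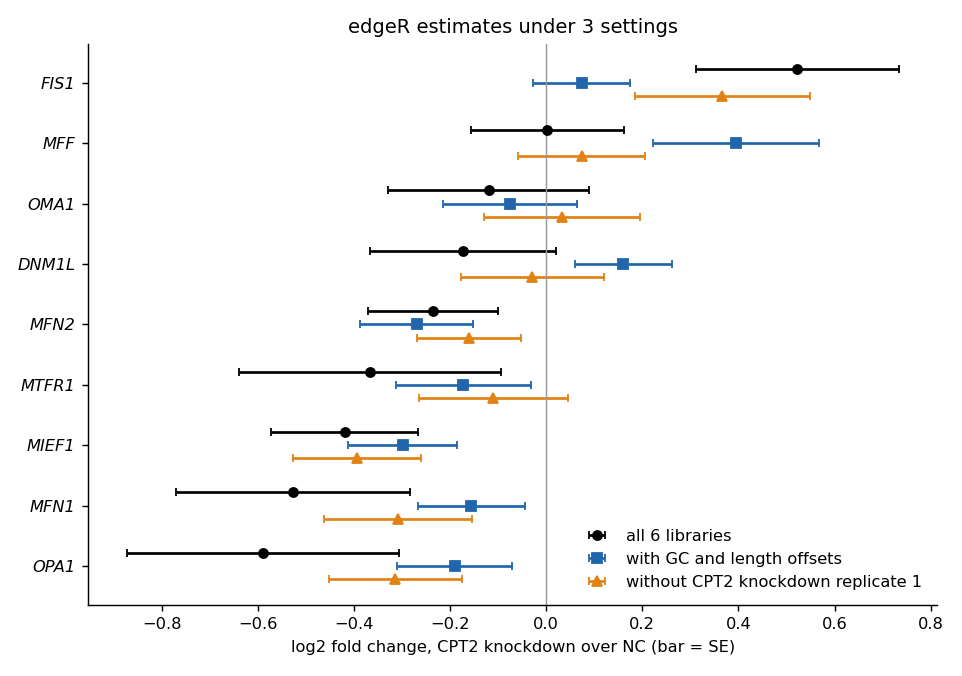
edgeR log2 fold changes, CPT2 knockdown over NC, with SE, for each gene from all 6 libraries (circles), with GC and length offsets (squares) and without CPT2 knockdown replicate 1 (triangles). MIEF1 lies between -0.42 and -0.30 and MFN2 between -0.27 and -0.16, whereas OPA1, MFN1 and FIS1 move toward 0 with the offsets and MFF moves to 0.40.

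Per transcript length, MFN2 and FIS1 had the highest levels and MFN1 the lowest. In the authors' FPKM, MFN2 averaged 53.7 ± 10.1 in the knockdown and 68.5 ± 1.44 in NC, and FIS1 60.2 ± 11.3 in the knockdown and 46.0 ± 6.001 in NC (SD, n = 3 each). FIS1 stood above MFN2 in CPT2 knockdown replicates 1 and 3, at 65.9 and 67.5 against 42.7 and 62.6 FPKM, and below it in knockdown replicate 2 and in all 3 controls. MFF averaged 26.8 ± 4.21 in the knockdown and 28.9 ± 3.59 in NC, and DNM1L 18.9 ± 7.11 in the knockdown and 24.1 ± 1.78 in NC. These 4 kept the first 4 places in all 6 libraries. In NC each of the 4 lay above the next without overlap, whereas in the knockdown FIS1 overlapped MFN2, and MFF overlapped DNM1L.

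The other 5 levels lay close together. MIEF1 averaged 6.48 ± 1.06 FPKM in the knockdown and 9.34 ± 0.428 in NC, OMA1 7.71 ± 2.26 and 9.25 ± 1.21, and OPA1 4.86 ± 2.22 and 8.06 ± 0.884. MTFR1 averaged 5.64 ± 2.34 in the knockdown and 7.79 ± 0.771 in NC, and MFN1 3.75 ± 1.37 in the knockdown and 5.84 ± 0.746 in NC. Neighbours among MIEF1, OMA1, OPA1 and MTFR1 overlapped in both groups, and MFN1 was last in every library. MFN2 was 19.6, 11.9 and 14.3 times the FPKM of MFN1 in CPT2 knockdown replicates 1 to 3, against 13.6, 10.3 and 11.7 times in NC replicates 1 to 3, which overlapped. FIS1 was 11.97, 7.475 and 8.88 times MIEF1 in CPT2 knockdown replicates 1 to 3, against 5.28, 4.18 and 5.34 times in NC replicates 1 to 3, without overlap. The transcripts of FIS1 and MIEF1 differ in GC content (57.4% and 49.99%) and length (1005 and 5625 bases). With GC and length offsets their log2 fold changes were 0.074 and -0.30. This ratio was not tested either, and how many gene pairs separate the groups in this way was not counted. FIS1 over MFF was 2.98, 1.56 and 2.41 in CPT2 knockdown replicates 1 to 3, against 1.74, 1.47 and 1.56 in NC replicates 1 to 3, with replicate 2 among the controls. Without overlap in FPKM, the same 4 genes (MFN1, MFN2, OPA1 and MIEF1) were lower, where 17.1% of all genes were, and none of the 9 was higher, where 7.19% were.

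**Figure D4:**
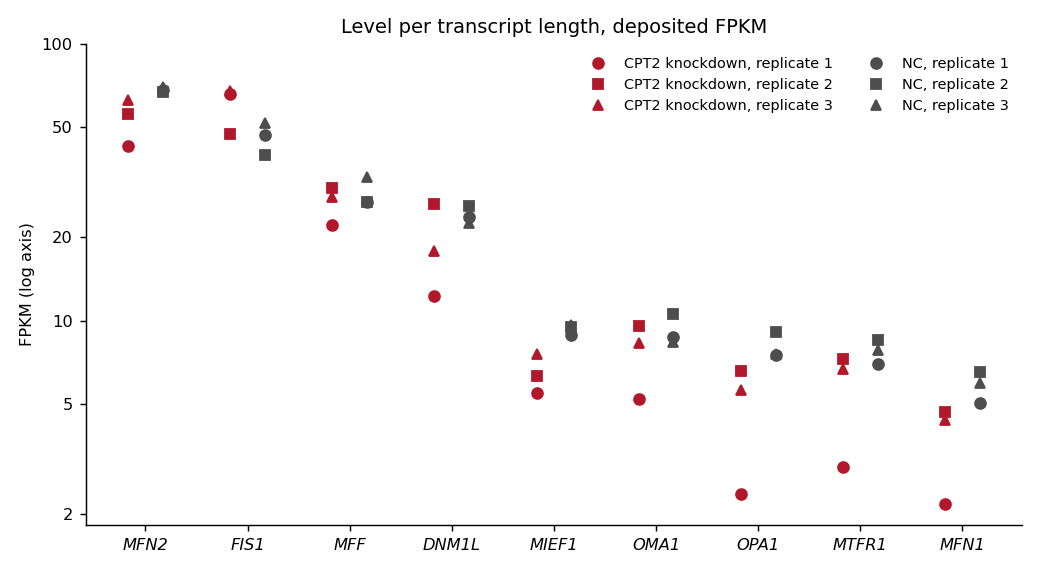
Deposited FPKM of the 9 genes on a log axis, ordered by their mean in NC, with CPT2 knockdown libraries left and NC libraries right of each name and a symbol per replicate number. MFN2, FIS1, MFF and DNM1L lie above 12 FPKM in all 6 libraries, and the other 5 genes lie below 11 FPKM.

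Genes that work with these 9 were set beside them as 7 lists of 51 genes, of which 50 were tested and none was called by edgeR. Of the 50, 28 had a positive and 22 a negative log2 fold change, with a median of 0.042, and 5 of the 50 had an unadjusted p under 0.05, where 14.5% of all genes tested had one. The list medians with GC and length offsets were -0.15 for the fusion helpers, 0.18 for OPA1 processing and scaffold, -0.11 for the fission helpers, -0.023 for the DRP1 modifiers, 0.048 for MICOS, -0.16 for transport and 0.010 for mitophagy. The fusion helpers, 6 of 7 negative with a median of -0.28 (-0.080 without CPT2 knockdown replicate 1), held the most negative value of the 50. That list also holds the ubiquitin ligases MUL1 and MARCHF5, which can act against mitofusins. Its median therefore does not stand for more or less fusion. MIGA1, an outer membrane mitoguardin that aids fusion, had 3.60, 9.78 and 5.93 CPM in CPT2 knockdown replicates 1 to 3, against 11.03, 19.8 and 13.2 CPM in NC replicates 1 to 3. Its groups did not overlap, with a log2 fold change of -1.19 (SE 0.37, edgeR adjusted p = 0.338) that was -0.73 (SE 0.18) with GC and length offsets. Its transcript had a GC content of 36.2%. MIGA2, its paralog, had 0.40 (SE 0.23) at a GC content of 60.9%, which was 0.19 without CPT2 knockdown replicate 1 and 0.11 with the offsets.

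OPA1 processing and scaffold genes had positive log2 fold changes in 6 of 7, with a median of 0.29 (0.18 without CPT2 knockdown replicate 1). PHB2 and PHB, the prohibitins that form a ring scaffold in the inner membrane, had 0.34 (SE 0.14) and 0.44 (SE 0.19), and these were -0.0050 and 0.19 with the offsets. PHB was 0.29 without CPT2 knockdown replicate 1. PHB2 had 162, 149 and 164 CPM in CPT2 knockdown replicates 1 to 3, against 133, 112 and 129 CPM in NC replicates 1 to 3, without overlap. The MICOS list held genes of that cristae-shaping complex and also SAMM50 and DNAJC11, which work with it but are not MICOS subunits. The list was positive in 8 of 9 with a median of 0.21 (0.10 without CPT2 knockdown replicate 1 and 0.048 with the offsets). SAMM50 had 0.30 (SE 0.18) and DNAJC11 0.22 (SE 0.13). With the offsets SAMM50 was 0.57 (SE 0.23) and DNAJC11 0.048. Without CPT2 knockdown replicate 1 they were 0.24 and 0.13, and SAMM50 was 0.32 (SE 0.18) with the offsets and without that library. Of the fission helpers, 5 of 9 were positive, with a median of 0.014 that was negative with the offsets, and with -0.44 (SE 0.22) for the actin nucleator SPIRE1 and -0.52 (SE 0.25) for TBC1D15. These were -0.28 and -0.27 without CPT2 knockdown replicate 1, and -0.22 and -0.056 with the offsets. Of the DRP1 modifiers, 4 of 8 were positive, with a median of 0.0059 that was negative with the offsets and -0.014 without CPT2 knockdown replicate 1, and with 0.41 (SE 0.21) for the kinase CDK5 and -0.31 (SE 0.17) for the SUMO protease SENP5. Without CPT2 knockdown replicate 1 these were 0.22 and -0.26, and with the offsets 0.0012 and 0.017. The transport genes had a median of -0.33 over 4 (-0.18 without CPT2 knockdown replicate 1), within which RHOT2 (Miro2) had 0.64 (SE 0.23, and 0.35 without that library) and the adaptor TRAK2 -0.47 (SE 0.28, -0.22 without that library and -0.13 with the offsets). The mitophagy genes had a median of 0.055 over 7 (0.12 without CPT2 knockdown replicate 1), with 0.67 (SE 0.27, and 0.35 without CPT2 knockdown replicate 1) for the receptor FKBP8. RHOT2 and FKBP8, at GC contents of 65.8% and 66.6%, had 0.16 and 0.050 with the offsets.

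**Figure D5:**
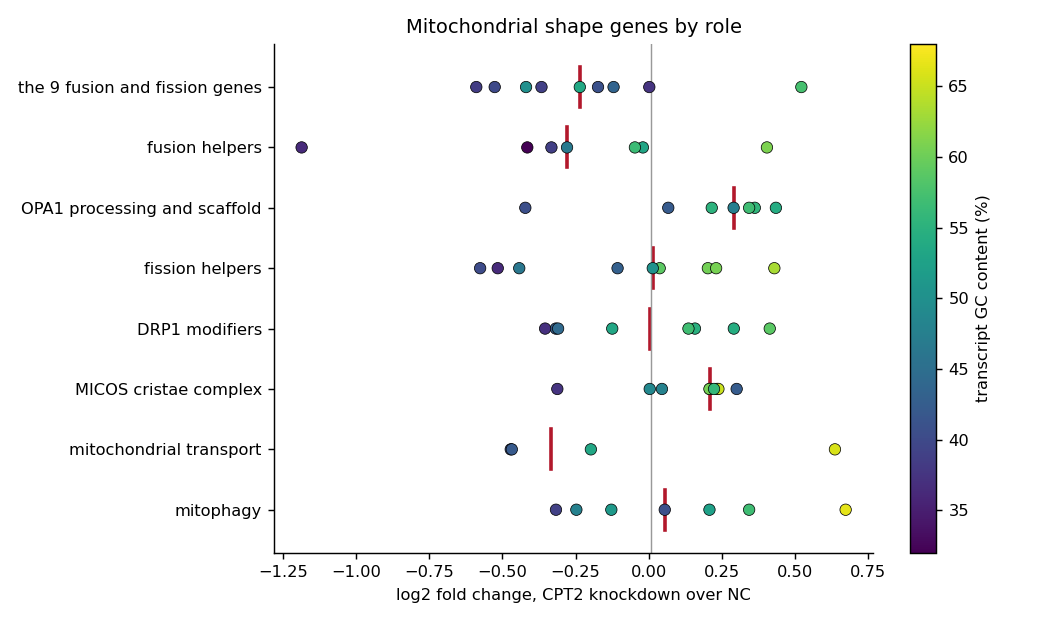
edgeR log2 fold changes, CPT2 knockdown over NC, of the 9 genes and of the tested members of each list, coloured by transcript GC content, with red bars at list medians and a grey line at the median of all tested genes. The points reach from -1.19 (MIGA1) to 0.67 (FKBP8), with dark, GC-poor points mostly on the left and light, GC-rich points on the right.

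Among the other members and the list genes (58 candidates), the one whose centred log2 CPM lay nearest over the 6 libraries was named for each of the 9. For MTFR1 it was the cell cycle kinase CDK1 (root mean squared difference 0.050), for MFN1 it was TRAK2 (0.063) and for FIS1 it was PHB (0.084). OMA1 and DNM1L were nearest to each other (0.077), OPA1 to RHOT1 (0.099) and MFF to the MICOS core gene IMMT (0.089). MIEF1 (0.085) and MFN2 (0.097) shared SENP5 as their nearest gene. The GC content was nearly alike for MTFR1 and CDK1 (38.8% and 37.0%), OPA1 and RHOT1 (38.4% and 41.2%) and MFN1 and TRAK2 (39.9% and 42%). So it was for FIS1 and PHB (57.4% and 54.15%) and OMA1 and DNM1L (43.5% and 41.0%). It differed for MFF and IMMT (37.4% and 48.8%), and for MFN2 (53.65%) and MIEF1 (49.99%) against SENP5 (44.3%). All 6 libraries entered these distances, CPT2 knockdown replicate 1 among them.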

How the data were processed

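Unnormalized whole-number counts per gene, and the FPKM values beside them, were used as the authors deposited them, with genome build GRCh38 and HISAT2, TopHat2, Bowtie2, StringTie, DESeq2 and edgeR named in the submitters' processing notes without roles. The gene models and library sizes behind the FPKM are not given in the sources used here. The deposited p-value and log2 fold change of the authors' DESeq2 comparison were copied, not recomputed.

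After 17 stray lines without a gene ID were left out, 24154 genes remained, 4180 of them the authors' new loci. Tests on counts used edgeR 4.0.16 under R 4.3.3 (filterByExpr, TMM, robust quasi-likelihood F-test, Benjamini-Hochberg over 15302 genes, threshold 0.05), and SE is of the log2 fold change. Alternatives used DESeq2 1.42.0, limma 3.58.1 (voom, and trend on log2(FPKM + 1) and log2(FPKM + 0.1), which understates changes of low genes), other scalings and filters, each library left out, the replicate number as a block, and GC and length offsets (loess, span 0.4). Length, GC content and coordinates come from GENCODE 29, with the longest transcript per gene, and promoters from RefSeq, which had windows for 8 of the 9 genes. The tests were checked on simulated counts without a GC trend, a library set apart or paired replicates, so that check does not cover these features.

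The members and lists were chosen with earlier results of these data known. Named list genes are the 2 with the smallest p per list. MARCHF5, garbled into a date in the table, was matched by Ensembl ID.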

Additional observations from a re-analysis of the deposited data

How the results depend on the processing

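The number of genes called over the whole table was 2 as reported, and 17 with DESeq2, 1 with limma-voom, 0 with limma-trend on either FPKM scale (2055 and 1932 genes had an unadjusted p under 0.05 with a pseudocount of 1 and of 0.1), and 1 to 5 when single libraries were left out. The correlation across genes of same-numbered deviations from the group means was 0.25, 0.36 and 0.0065 for replicates 1, 2 and 3. Between differently numbered libraries it ran from -0.32 to 0.091. Knockdown replicates 1 and 2 thus went best with the control of their own number, and replicate 3 was near 0 with every control. Whether the numbers pair the libraries is therefore not settled. With the replicate block 633 genes and none of the 9 were called, with the block and GC and length offsets together 459 and none of the 9. Alternatives chosen after seeing the data were GC and length offsets without CPT2 knockdown replicate 1 (4 genes called, none of the 9), and the block without that library (2001 genes, 12.8% of those tested, and 3 of the 9). Those 3 were MIEF1 (-0.41, adjusted p = 0.0306), MFN1 (-0.39, 0.0448) and FIS1 (0.39, 0.0449), by edgeR. In that fit NC replicate 1 has no partner, so the comparison rests on the pairs numbered 2 and 3 alone. Pair 3 had a correlation of 0.0065, and few libraries are left to estimate the spread. The p-values of that fit, that of CPT2 below included, therefore do not settle a difference. Of 171 values for the 9 genes under 19 alternatives, 152 kept their direction and their side of the threshold. MFF, at 0.0023, was negative with DESeq2 (-0.0041), RLE factors (-0.0042), unscaled library sizes (-0.13), all genes kept (-0.011), at least 1 CPM in 3 libraries (-0.0013), FPKM + 1 (-0.11) and FPKM + 0.1 (-0.12), and ran from -0.076 to 0.078 as single libraries were left out. DNM1L was 0.16 with offsets, 0.16 with offsets and the block, and 0.11 with offsets without CPT2 knockdown replicate 1. OMA1 ran from -0.28 to 0.033 as single libraries were left out, 0.033 being the value without CPT2 knockdown replicate 1, and was 0.034 with the block as well. CPT2 was 0.015 with offsets and -0.019 with offsets and the block. It was -0.53 (edgeR adjusted p = 0.0135) with the block without CPT2 knockdown replicate 1. With offsets, and with offsets and the block, PHB2 was -0.0050 and -0.012 and SENP5 0.017 and 0.00092. With offsets and without CPT2 knockdown replicate 1, CDK5 was -0.046 and FKBP8 -0.031. Of the 13 list genes named, 10 of 247 values passed the threshold, all in fits with the block (MIGA1, SAMM50, RHOT2, FKBP8, PHB and PHB2). The causes were not tested. Unscaled library sizes moved the median of all genes to -0.13, and FPKM + 0.1 moved it to -0.12. With 3 libraries a group and intervals such as -1.08 to 0.026 for MFN1, differences of this size are not settled at this number of libraries.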
